A study of Mus musculus with 24 samples.

Results

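The first 2 h of stimulation with LPS and IFNγ were examined in wild-type bone marrow-derived macrophages by setting the 3 arrays of cells harvested after 2 h against the 3 arrays of cells harvested just before stimulation. These 6 arrays, of 24 in the series, were chosen by their labels: genotype GCHfl/fl, time 0 h or 2 h, matched by animal id. The cells came from adult female C57bl/6J mice numbered 2, 3 and 6, and each animal gave 1 array at each time. All 3 carried the floxed Gch1 allele without Tie2cre and are called wild-type here. Gch1 encodes GTP cyclohydrolase, the first enzyme of tetrahydrobiopterin (BH4) synthesis. The other genotype, GCHfl/flTie2cre (animals 1, 4 and 5, also adult female C57bl/6J), carries the same floxed allele with Cre under the Tie2 promoter, which is active in endothelial and blood-forming cells. It is used below only as a second set of animals given the same treatment. Marrow was cultured for 7 days with L929-conditioned medium, and the macrophages were plated without serum for 2 h, after which LPS was added with 10 ng/ml IFNγ. No array of unstimulated cells kept for the same further 2 h was analysed here, so stimulation and further time in the plate cannot be told apart.

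LPS is sensed by Toll-like receptor 4, which signals through MyD88 and TRIF to the NF-kB factors, the MAP kinases and IRF3. IFNγ signals through its receptor and the kinases JAK1 and JAK2 to STAT dimers, which bind GAS elements in target promoters. Together they drive the classically activated state of the macrophage, which is known for secreted cytokines and chemokines, for feedback inhibitors that act within hours, and for inducible nitric oxide synthase.

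At 2 h the chemokine Cxcl9, the cytokines Il19, Ifnb1, Il1a, Il6 and Il27, the signalling inhibitors Cish and Socs1, and the transcription factor Irf8 were higher than at 0 h by more than 8-fold, and 12 of 13 tested interferon-inducible GTPases were higher. A larger number of genes was lower, by less: Sesn1, Egln3, Irf2bp2, Tab1, Vegfa and Dusp6 were among them, and 38 of 151 tested Zfp-numbered zinc finger genes. Of 21 tested scavenger and alternative activation receptors, 1 was higher and 1 lower. Over all 8875 tested genes, 6.56% were higher and 9.63% lower.

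Levels are log2 intensities after background correction and quantile normalization, and a difference is the mean at 2 h minus the mean at 0 h on that scale, so that 1 unit is a doubling. The levels of different probes cannot be set against each other. A probe was called where limma's Benjamini-Hochberg adjusted p was under 0.05 and the fold over 1.5, and all adjusted p-values given are limma's over 16498 tested probes. The spread in the test was pooled over the 8 groups of genotype and time, so the p-values measure the spread between cultures of all 6 animals of the series and not of these 3 alone. Of the tested probes, 1146 (6.95%) were called higher and 1384 (8.39%) lower at 2 h. Counted by gene, with the brightest of its tested probes standing for it, 582 of 8875 genes (6.56%) were higher and 855 (9.63%) lower. The split between rises and falls changed with the scaling: 45.3% of all calls were rises here, 42.3% with the deposited values (754 higher and 1028 lower) and 56.4% without background correction (868 and 671). Without animal 2 the counts were 590 higher and 621 lower, and without animal 3 they were 622 and 688. Leaving out animal 6 gave 1025 and 1185.

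The rises were larger than the falls. By brightest probe, 96 genes rose more than 4-fold and 20 fell as much, 31 rose and 3 fell more than 8-fold, and 9 rose and 0 fell more than 16-fold. The calls were made on these same arrays, so the following values of the called probes describe them and test nothing. The median difference of the probes called higher was 1.2, 1.2 and 1.22 in animals 2, 3 and 6, and that of the probes called lower was −1.07, −0.973 and −0.999. The median over all tested probes was −0.08. The 3 arrays at 2 h all lay above the 3 at 0 h for 1121 of the 1146 probes called higher (14.3% of all tested probes had such groups), and all lay below for 1326 of the 1384 called lower (20.5% of all had such groups).

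**Figure D1:**
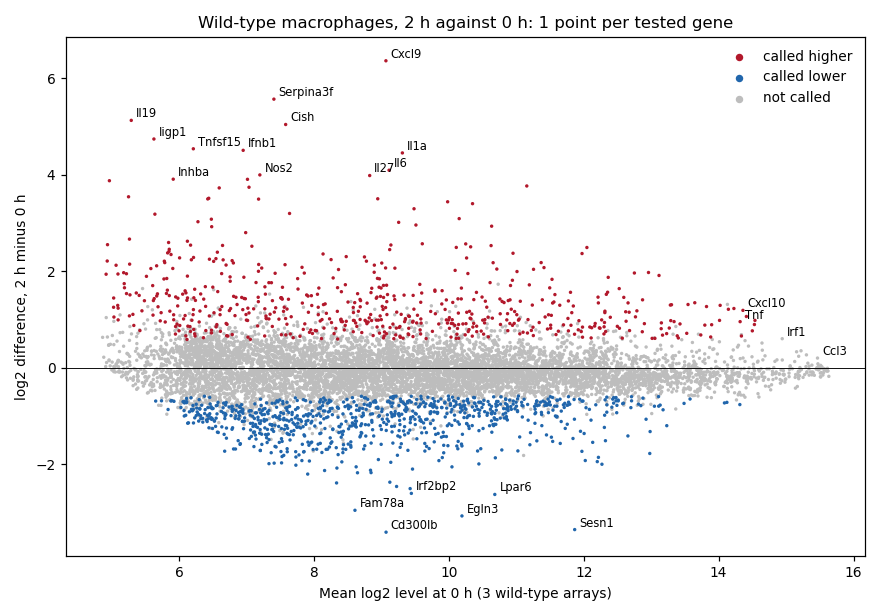
Each point is a tested gene by its brightest probe, with its mean log2 level on the 3 wild-type arrays at 0 h on the x axis and its log2 difference, 2 h minus 0 h, on the y axis. The 582 genes called higher (red) reach 6.36 for Cxcl9, the 855 called lower (blue) reach −3.41 for Cd300lb, and few genes with a 0 h level over 14 lie far from 0.

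The arrays measured the cells at both times with like brightness, with a mean intensity of 778 to 873 at 0 h and 682 to 1028 at 2 h. Arrays of 1 time correlated at r = 0.9639 to 0.9898 at 0 h and 0.9557 to 0.9874 at 2 h, with the lowest value at each time between animals 2 and 6. A smaller share of the probes was detected at 2 h (27.8 to 30.5%) than at 0 h (30.8 to 33.3%), and its part in the falls was not tested. The markers fitted the macrophage label: all 7 on the array (Adgre1, Itgam, Csf1r, Lyz2, Fcgr1, Mertk and Cd14) were detected on all 6 arrays, and none was called. No marker of T cells, NK cells, fibroblasts, mast cells or erythroid cells was detected at 0 h. The megakaryocyte marker Ppbp was detected on all 3 arrays at 0 h and Gp9 on 1, the B cell marker Cd79b and the endothelial marker Kdr on 1 each, and the neutrophil markers Ngp and Ltf on 2 and Camp on 1. The summed linear levels of the neutrophil markers ran from 308 to 1496 at 0 h and from 279 to 2041 at 2 h. Those of the macrophage markers ran from 116151 to 132952 over both times. Such sums add different probes, undetected ones included, so they do not give shares of cells. Of 6 dendritic cell markers 1 (Siglech) was detected on all 6 arrays. Gch1 itself had a level of 13.80 to 13.95 at 0 h and 14.22 to 14.40 at 2 h in wild-type cells, a difference of 0.42 ± 0.30 (SE; adjusted p = 0.39), against means of 11.31 and 12.05 in GCHfl/flTie2cre. Where within Gch1 the probe lies, relative to the deleted part, is not given in the sources used here.

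The promoters of genes at the 2 ends of the response are shown first. Each sequence is the 200 bases before the RefSeq start on the gene's strand (GRCm38.p6), written 5′ to 3′, and capitals mark every match, on either strand, to 8 patterns: the NF-kB consensus, the NF-kB core GGGNNTTTC, the ISRE core GAAANNGAA bound by IRF and STAT complexes, the GAS pattern TTCNNNGAA bound by STAT dimers, the AP-1 pattern TGANTCA, the cAMP response element TGACGTCA, the CArG box bound by SRF, and TATAAA. The first 6 are genes among the 15 with the largest rise whose stretch held 2 or more matches, a choice made after the matches were seen, and the last 2 are from the genes that fell.
Cxcl9 (chr5:92328080-92328279, minus strand): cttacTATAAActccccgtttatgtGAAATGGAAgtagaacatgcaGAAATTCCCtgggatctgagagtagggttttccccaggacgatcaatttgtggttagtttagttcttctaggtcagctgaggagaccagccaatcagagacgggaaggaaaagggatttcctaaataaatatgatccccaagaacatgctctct
Serpina3f (chr12:104214344-104214543, plus strand): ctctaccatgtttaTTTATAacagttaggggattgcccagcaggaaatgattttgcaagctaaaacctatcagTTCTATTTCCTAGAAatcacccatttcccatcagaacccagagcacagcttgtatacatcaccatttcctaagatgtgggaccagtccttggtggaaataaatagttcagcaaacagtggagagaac
Il19 (chr1:130940116-130940315, minus strand): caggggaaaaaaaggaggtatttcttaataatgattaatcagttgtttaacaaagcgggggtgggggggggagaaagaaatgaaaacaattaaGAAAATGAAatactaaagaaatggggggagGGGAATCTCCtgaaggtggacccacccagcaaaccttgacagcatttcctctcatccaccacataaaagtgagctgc
Ifnb1 (chr4:88522795-88522994, minus strand): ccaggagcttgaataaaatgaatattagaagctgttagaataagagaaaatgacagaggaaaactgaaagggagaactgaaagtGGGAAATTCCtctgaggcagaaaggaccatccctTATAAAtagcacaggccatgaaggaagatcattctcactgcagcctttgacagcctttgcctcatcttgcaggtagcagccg
Il1a (chr2:129309973-129310172, minus strand): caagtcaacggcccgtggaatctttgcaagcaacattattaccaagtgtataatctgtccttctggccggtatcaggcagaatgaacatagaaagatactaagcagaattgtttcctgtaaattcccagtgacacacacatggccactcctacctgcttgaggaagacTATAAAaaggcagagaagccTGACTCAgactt
Il6 (chr5:30012914-30013113, plus strand): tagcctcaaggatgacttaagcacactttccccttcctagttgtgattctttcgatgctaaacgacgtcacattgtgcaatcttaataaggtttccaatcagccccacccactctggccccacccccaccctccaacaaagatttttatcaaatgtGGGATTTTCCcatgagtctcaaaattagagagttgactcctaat
Egln3 (chr12:54203875-54204074, minus strand): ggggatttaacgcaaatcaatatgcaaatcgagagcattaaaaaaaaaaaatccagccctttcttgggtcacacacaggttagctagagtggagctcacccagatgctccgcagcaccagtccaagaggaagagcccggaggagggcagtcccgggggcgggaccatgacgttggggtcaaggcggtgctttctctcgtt
Irf2bp2 (chr8:126593987-126594186, minus strand): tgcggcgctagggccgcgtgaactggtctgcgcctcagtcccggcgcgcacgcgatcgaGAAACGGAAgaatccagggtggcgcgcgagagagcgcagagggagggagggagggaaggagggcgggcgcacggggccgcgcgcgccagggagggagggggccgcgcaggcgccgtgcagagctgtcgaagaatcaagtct

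The stretch of Il6 held an NF-kB consensus match that begins 44 bases before the start and overlaps a core match, and that of Ifnb1 held one 116 bases before it. In Il19 the consensus match GGGAATCTCC lay 77 bases before the start with an ISRE core match upstream, and in Cxcl9 a core match (GAAATTCCC, on the other strand) and an ISRE core match lay 154 and 175 bases before it. In Serpina3f an ISRE core match overlapped a GAS match, TTCCTAGAA. Il1a held an AP-1 match 12 bases before the start. The stretch of Egln3 held none of the 8 patterns and that of Irf2bp2 held 1, an ISRE core match. No count of matches was required of these 2, so the printed stretches do not compare rises with falls. Of the genes not printed, Cish, Tnfsf15 and Slamf1, which rose, held 0 matches, and Cd300lb and Osgin1, which fell, held 2 each. Over the 300-base RefSeq windows, 730 of the 855 genes called lower (85.4%) have one, and 4.66% of these held an ISRE core match, against 7.59% of all 7302 tested genes with a window and 8.57% of all 27025 windows. The GAS pattern was in 5.34%, 6.82% and 8.47% of these sets, the NF-kB consensus in 5.48%, 4.93% and 4.35%, and TGACGTCA in 4.52%, 3.48% and 1.88%. TATAAA was in 4.93%, 7.48% and 14.2%. With the deposited values, 601 genes called lower have a window, and the GAS pattern was in 6.99% of these. The ISRE core, the NF-kB consensus, TGACGTCA and TATAAA were in 4.66%, 5.16%, 3.99% and 4.83%. Of the 582 genes called higher only 450 (77.3%) had a window, so no share is given for them.

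Cxcl9, which encodes a ligand of the T cell receptor CXCR3 and is a textbook target of IFNγ, had the largest difference of all tested genes. Its level was 9.45, 9.33 and 8.43 at 0 h in animals 2, 3 and 6, and 15.32, 15.32 and 15.64 at 2 h. Its groups lay far apart, and the difference was 6.36 ± 0.42 (SE, n = 3 animals; 82-fold; adjusted p = 9.41e-09). Of 20 tested chemokine ligands, 8 (40%) rose and 0 fell, against 6.56% and 9.63% of all tested genes. The median difference was 0.68 against −0.10 over all genes. The others that rose were Ccl2, Ccl7, Ccl12 and Ccl8, ligands of CCR2 or related receptors of monocytes, by 2.53, 2.37, 2.18 and 2.29, the CXCR3 ligand Cxcl10 by 1.19, the T cell attractant Ccl5 by 1.21 and the membrane-bound Cx3cl1 by 0.62. Ccl2 differed among the animals at 0 h (9.74, 10.07 and 12.07) and at 2 h (12.61, 12.69 and 14.17), with animal 6 the highest at both, and its groups did not overlap. Cxcl2 and Cxcl1, which attract neutrophils, were not called: Cxcl2 went from 14.39 to 14.95 (adjusted p = 0.0728) and Cxcl1 from 14.34 to 15.02 (0.131). Both were called higher with the deposited values, by 0.82 (0.00704) and 0.95 (0.0252), and in GCHfl/flTie2cre, by 0.76 (0.0148) and 1.28 (0.00498). Ccl3, a ligand for monocytes and T cells, stood at 15.46 at 0 h and 15.66 at 2 h (adjusted p = 0.728), close to the highest level on the 6 arrays, 15.7. The call of Ccl7 was lost without animal 2 (adjusted p = 0.053), as was that of Ccl8 (0.0835), and the call of Cx3cl1 without animal 3 (0.149) or 6 (0.0778).

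**Figure D2:**
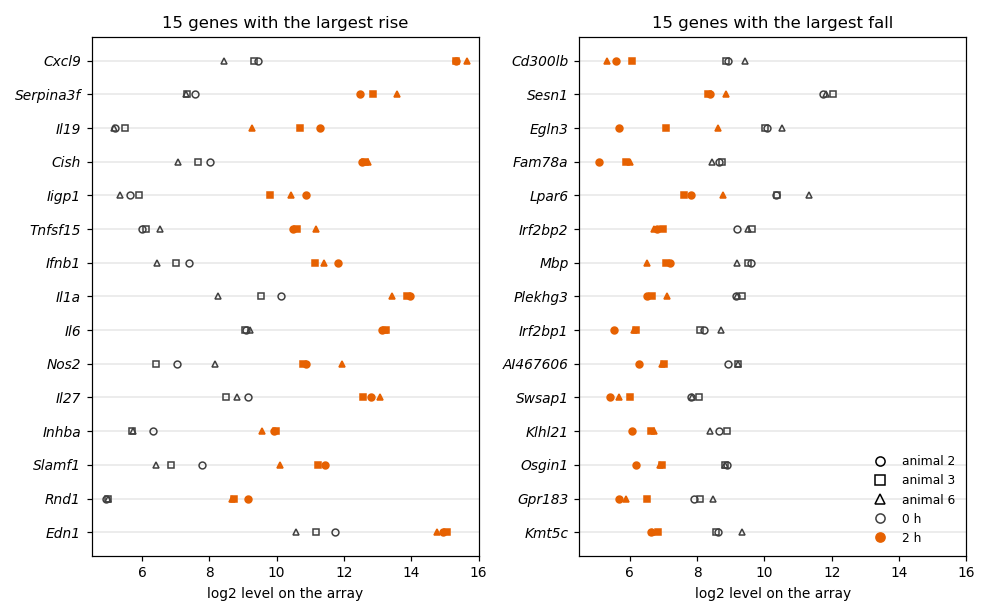
Log2 level of the 15 genes with the largest rise and the 15 with the largest fall on each of the 6 wild-type arrays, with a marker shape for each animal, open grey at 0 h and filled orange at 2 h. No gene's groups overlap, as the choice required, and Egln3 has the widest spread at 2 h, from 5.67 to 8.62.

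Of 27 tested cytokine and growth factor genes, 16 (59.3%) rose and 1 (3.7%), Vegfa, fell, against 6.56% and 9.63% of all tested genes. The median difference of the list was 1.28. The interleukin-1 and interleukin-6 genes are the classical early products of a macrophage that meets LPS. Il6 was 9.09, 9.06 and 9.20 at 0 h and 13.13, 13.25 and 13.23 at 2 h. All 3 animals lay close together at each time, and the difference was 4.09 ± 0.33 (17-fold; adjusted p = 1.65e-07). Il1a was 10.13, 9.54 and 8.27 at 0 h and 13.97, 13.88 and 13.44 at 2 h. Animals kept the same order at both times, animal 6 being the lowest, and the difference was 4.45 ± 0.45 (adjusted p = 1.41e-06). Ifnb1, a type I interferon that acts back on the cell that secretes it, was 7.41, 7.00 and 6.46 at 0 h and 11.83, 11.13 and 11.41 at 2 h, a difference of 4.5 ± 0.85 (adjusted p = 0.000885).

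Several cytokine genes were not detected on any array at 0 h, and for these a lower bound of the fold is given, set against the lowest signal among detected probes of each 0 h array. Il19, of the interleukin-10 family, was at least 15.8-fold higher, with 11.29, 10.71 and 9.26 at 2 h in animals 2, 3 and 6 (adjusted p = 1.68e-06). Inhba, which encodes the activin A subunit, was at least 10.45-fold higher (2.65e-07). Il12a, the p35 subunit of interleukin-12, was at least 5.129-fold higher (0.000102), and Il23a, the p19 subunit of interleukin-23, at least 3.959-fold (2.89e-05). Il27, the p28 subunit of interleukin-27, was detected on all 6 arrays and rose by 3.98 ± 0.65 (adjusted p = 0.000245), and Tnfsf15, a TNF family ligand detected on 1 of 3 arrays before stimulation, rose by 4.54 ± 0.34 (6.6e-08). Ifnb1 was detected on 2 of 3 arrays at 0 h.

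Il10, which restrains macrophage activation, was 8.77, 8.40 and 9.67 at 0 h and 12.62, 12.44 and 12.29 at 2 h, a difference of 3.5 ± 0.45 (adjusted p = 1.88e-05). Il1rn, the interleukin-1 receptor antagonist, rose by 1.97 ± 0.25 from a 0 h level of 12.96 (1.58e-05), so 2 genes that encode inhibitors of inflammation were among the 16 that rose. Tnf was already at 14.31, 14.43 and 14.21 before stimulation and reached 15.46, 15.19 and 15.17. All 3 animals were higher at 2 h, and the difference of 0.95 ± 0.22 passed the test (adjusted p = 0.00529) but not without animal 2 (0.0594). Il1b went from 14.13 to 15.44 and missed the threshold (adjusted p = 0.0581), with its 0 h arrays spread from 13.26 to 14.88. Among 237 genes with a 0 h level over 14, 11 were called higher and 3 lower. The calls of Osm, Il15 and Il18 were lost without animal 2 (adjusted p = 0.0851, 0.056 and 0.0702), that of Osm also without animal 3 (0.0756) or 6 (0.25), that of Il18 also without animal 6 (0.255), and that of Hbegf without animal 2 (0.0711).

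NF-kB subunits and regulators of the pathway formed a second group, with 9 of 21 tested genes (42.9%) higher and 1 (4.76%) lower. All tested genes had 6.56% and 9.63%. The median of the list was 0.59. Rel, the c-Rel subunit, was 8.78, 8.66 and 8.00 at 0 h and 10.69, 10.83 and 10.82 at 2 h. Its groups lay well apart, and it rose by 2.30 ± 0.33 (adjusted p = 6.65e-05). Of the IkB family, whose members do not all inhibit NF-kB, Bcl3, Nfkbib and Nfkbiz rose by 1.71, 1.52 and 1.30. The inhibitor gene Nfkbia rose by 0.68 ± 0.15 (adjusted p = 0.00293). Tnfaip3 (A20), a ubiquitin-editing brake on the pathway, rose by 1.56 ± 0.19 (1.32e-05), and the endoribonuclease gene Zc3h12a, whose product degrades cytokine mRNAs, by 1.61 ± 0.20 (1.34e-05). Ikbkg, the NEMO subunit of the IkB kinase complex, fell by 0.69 by its brightest probe but was not called by its other 2 (adjusted p = 0.988 and 0.829), a call lost without animal 2 (0.256), 3 (0.0826) or 6 (0.169). The call of Nfkbia was lost without animal 2 (0.0523) or 3 (0.083), that of Nfkb2 without any 1 of the animals (0.0659, 0.128 and 0.169), and that of Tnip2 without animal 2 (0.102) or 3 (0.0581).

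Of 24 tested Toll-like receptor and adaptor genes, 2 (8.33%) rose and 1 (4.17%) fell, against 6.56% and 9.63% of all tested genes. Map3k8, the TPL2 kinase that links this pathway to ERK, rose by 2.04 ± 0.24 (adjusted p = 6.87e-06). Tab1, an adaptor of the kinase TAK1, was 10.11, 10.11 and 9.92 at 0 h and 7.72, 8.16 and 8.10 at 2 h. Its groups lay well apart, and it fell by 2.05 ± 0.17 on the log2 scale (1.37e-07). Its partner gene Tab2 rose by 0.61, a call lost without animal 2 (0.0626), 3 (0.0773) or 6 (0.158). Tlr4, the receptor of LPS, and Myd88 were not called, with differences of −0.18 and 0.19 (adjusted p = 0.706 and 0.515).

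MAP kinase phosphatases and immediate early factors moved both ways, with 9 of 32 tested genes (28.1%) higher and 6 (18.8%) lower. Over all tested genes the shares were 6.56% and 9.63%. Dusp2, a nuclear phosphatase of ERK and p38, was 11.49, 10.63 and 9.78 at 0 h and 14.03, 13.79 and 12.89 at 2 h. Animal 6 was the lowest at both times, and the difference was 2.93 ± 0.47 (adjusted p = 0.000192). Dusp16 rose by 2.27, Dusp1 by 1.30, and the AP-1 member Junb by 1.14. Dusp6, a cytoplasmic phosphatase of ERK, went the other way: 10.26, 10.10 and 10.98 at 0 h and 8.11, 8.26 and 9.0 at 2 h. It fell by 1.99 ± 0.47 on the log2 scale (adjusted p = 0.00546), a call lost without animal 3 (0.0569). Dusp4 fell by 1.57 by its brightest probe, while its other 2 tested probes had differences of −0.45 and −0.22 and were not called (adjusted p = 0.607 and 0.782). Dusp7 fell by 1.17, and Fos, the partner of JUN in AP-1, by 1.36 (adjusted p = 0.00339), with Fos at 11.72 to 12.53 at 0 h and 10.40 to 10.85 at 2 h. Without animal 2 the count of members higher was 5, and without animal 3 it was also 5. Over all tested probes the calls higher went from 1146 to 590 and 622. Klf4, Fosl2, Maff and Zfp36 were not called in either fit. Plk3 lost its call downwards in both fits (0.0893 and 0.104).

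STAT, IRF and SOCS regulators held 13 genes (43.3%) that rose and 1 (3.33%) that fell, of 30 tested. Over all tested genes 6.56% rose and 9.63% fell. The list had a median of 0.73. Cish, a SOCS family inhibitor of cytokine receptor signalling, was 8.01, 7.66 and 7.08 at 0 h and 12.52, 12.63 and 12.71 at 2 h. Its 2 h arrays lay closer together than those at 0 h, and the difference was 5.04 ± 0.55 (32.9-fold; adjusted p = 3.28e-06). Socs1, which blocks the JAK kinases, was 7.51, 7.57 and 7.84 at 0 h and 11.30, 10.63 and 10.58 at 2 h, a difference of 3.20 ± 0.29 (6.5e-07). Socs3 rose from 14.23 to 15.45 (1.23 ± 0.15; adjusted p = 1.75e-05).

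Irf8, a transcription factor of the mononuclear phagocyte lineage that IFNγ is known to induce, was 10.66, 10.41 and 9.98 at 0 h and 13.56, 13.49 and 14.20 at 2 h. It rose in all 3 animals, by 3.40 ± 0.30 in the fit (adjusted p = 4.11e-07). Batf2, a partner of IRF1 in macrophages, rose by 3.09 ± 0.44, Stat5a by 2.12 ± 0.21 and Jak2, a kinase of the IFNγ receptor, by 1.51 ± 0.26. Irf1 was not called by its brightest probe, which stood at 14.94 at 0 h and 15.54 at 2 h (adjusted p = 0.0907), and its other 4 tested probes, with 0 h levels of 9.32 to 13.42, rose by 1.32 to 2.11 (adjusted p = 0.0078 to 0.0328). Ifngr2, the second chain of the IFNγ receptor, was 12.36, 12.28 and 12.30 at 0 h and 11.55, 11.46 and 10.97 at 2 h, and fell by 0.98 ± 0.17 on the log2 scale (adjusted p = 0.000346). Of its other 2 tested probes 1 was called lower (−0.95; adjusted p = 0.0081) and 1 was not (−0.66; 0.0736). Among these regulators the calls of Batf and Stat3 were lost without animal 2 (0.227 and 0.0661), and those of Batf and Stat4 without animal 3 (0.238 and 0.0615).

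**Figure D3:**
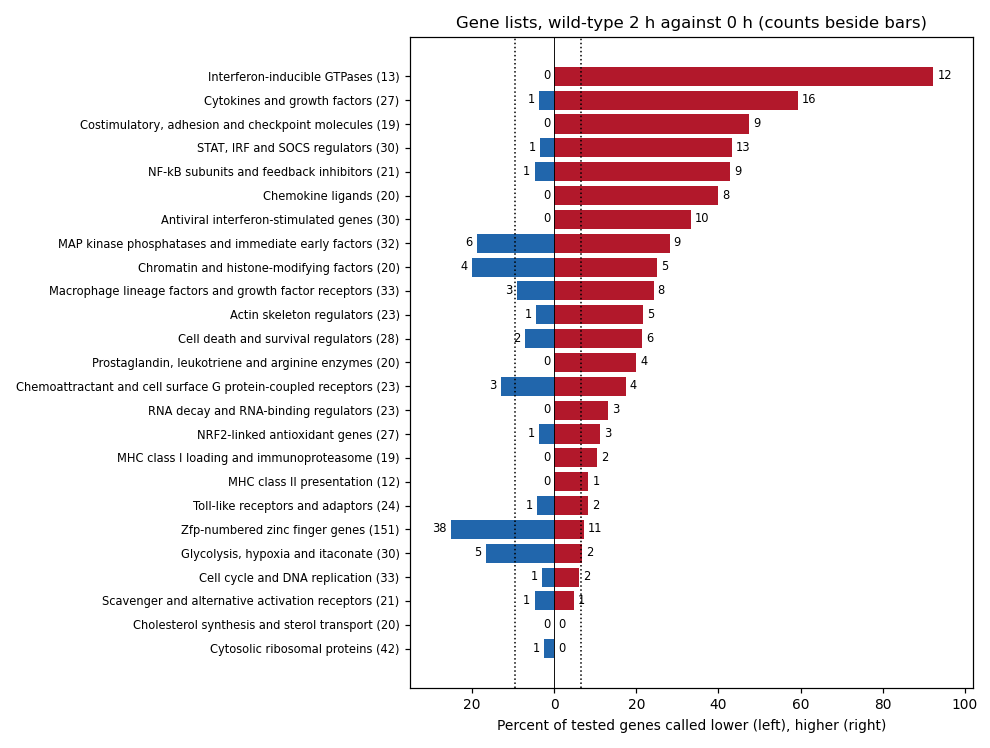
Percent of the tested genes of each list called lower (bars to the left) or higher (bars to the right) by brightest probe, with counts beside the bars, the number tested in brackets, and dotted lines at the 9.63% lower and 6.56% higher of all tested genes. Interferon-inducible GTPases reach 92.3% higher, cytokines 59.3%, and the Zfp-numbered zinc finger genes reach 25.2% lower.

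The interferon-inducible GTPases, which attack the vacuoles of intracellular pathogens or block viruses, rose almost as a group in wild-type cells. There 12 of 13 tested genes (92.3%) were higher and 0 lower, against 6.56% and 9.63% of all tested genes. The median was 1.41. Without animals 2, 3 and 6 the count higher was 10, 11 and 10. In GCHfl/flTie2cre 8 of these genes were called higher, and the median was 0.98. Iigp1 was undetected on every 0 h array and reached 10.87, 9.81 and 10.42 at 2 h, so it was at least 15.26-fold higher (adjusted p = 0.00028). Tgtp1 was 9.45, 9.13 and 8.79 at 0 h and 11.82, 11.52 and 11.38 at 2 h, a difference of 2.45 ± 0.42 (0.000435). Mx1, an inhibitor of influenza viruses, rose by 1.81 and Mx2 by 1.83, and the guanylate-binding proteins Gbp7, Gbp5, Gbp3 and Gbp2 by 1.71, 1.64, 1.41 and 0.90. Several of these genes share much of their sequence with near relatives, and how far their probes tell them apart is not given in the sources used here. The call of Gbp5 was lost without animal 2 (0.0864), 3 (0.0669) or 6 (0.0616), and that of Gvin1 without animal 2 (0.0629) or 6 (0.112).

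The antiviral interferon-stimulated genes moved less. Of 30 tested, 10 (33.3%) rose and 0 fell, against 6.56% and 9.63% of all tested genes. The median of the list was 0.60. Oasl1 rose by 2.07 ± 0.34 (adjusted p = 0.000255), Ifi205 by 1.96 ± 0.32 and the RNA sensor Ifih1 (MDA5) by 1.65 ± 0.28. Only these kept their call in all 3 fits that left out an animal. Without animal 2 the list held 3 genes higher, without animal 3 it held 4, and without animal 6 it held 9. Over all tested probes the calls higher went from 1146 to 590, 622 and 1025 in these fits. Rsad2 (viperin) was at 15.22 at 0 h and 15.57 at 2 h and was not called (adjusted p = 0.0863).

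Genes of antigen presentation were mostly not called. The share higher was 10.5% in the MHC class I list and 8.33% in the class II list, against 6.56% of all tested genes. In the MHC class I list 2 of 19 rose, the peptide transporter Tap1 by 1.67 ± 0.24 (adjusted p = 7.2e-05) and Nlrc5, the activator of class I genes, by 1.32 ± 0.23. In the class II list the activator Ciita was the 1 gene of 12 that passed (1.67 ± 0.54; adjusted p = 0.0387), and it did not without animal 2 (0.09), 3 (0.112) or 6 (0.149). Cd74 and H2-Ab1 had differences of 0.21 and 0.01, with animal 6 the lowest of the 3 at both times. Among costimulatory and adhesion molecules, 9 of 19 (47.4%) rose and 0 fell, against 6.56% and 9.63% of all tested genes. The median of this list was 0.89. Slamf1 was 7.78, 6.85 and 6.42 at 0 h and 11.42, 11.22 and 10.11 at 2 h. It was detected on 2 of 3 arrays at 0 h. Slamf1 rose by 3.90 ± 0.55 (adjusted p = 5.29e-05), Cd200 by 2.22, Cd69 by 1.91, Cd80 by 1.45, Cd40, which T cells engage, by 1.29, and Cd274 (PD-L1) by 1.27. The brightest probes of Cd40 and Cd69 stood at 15.31 and 15.03 at 2 h, near the highest level on the 6 arrays, 15.7. The other tested probes of Cd40 rose by 1.60 to 2.28 and that of Cd69 by 2.76, and all were called. The calls of Vcam1 (0.0791, 0.167 and 0.171 without animals 2, 3 and 6), of Slamf7 (0.0587 and 0.073 without 2 and 3) and of Icam1 (0.0669 without 3) were lost.

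Nos2, the inducible nitric oxide synthase, was 7.03, 6.42 and 8.15 at 0 h and 10.87, 10.78 and 11.93 at 2 h. Animal 6 was the highest at both times, the groups did not overlap, and the difference was 3.99 ± 0.45 (15.9-fold; adjusted p = 4.62e-06). Slc7a2, a carrier that brings in its substrate arginine, rose by 2.53 ± 0.36 (6.23e-05), and Arg2, a mitochondrial arginase, by 2.13 ± 0.20 (7.31e-07). Arg1, the cytosolic arginase, was detected on no array at either time and not called (0.928). Slc7a2 was detected on 2 of 3 arrays at 0 h. Ptgs2, the inducible cyclooxygenase, rose by 2.50 ± 0.59 (adjusted p = 0.00545), a call lost without animal 3 (0.0516). In all, 4 of 20 genes (20%) of the prostaglandin, leukotriene and arginine list rose and 0 fell, against 6.56% and 9.63% of all tested genes.

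Most of the called regulators of the actin skeleton rose. Rnd1, a small GTPase that promotes cell rounding, was at 4.94, 4.99 and 4.99 at 0 h, undetected on all 3 arrays, and at 9.14, 8.72 and 8.66 at 2 h. It was at least 5.306-fold higher, with an adjusted p of 6.1e-11. The close values at undetected signal (SD 0.028 at 0 h) enter the pooled spread behind that p. Rhob rose by 2.49 ± 0.29 (8.48e-06), with 2 h levels of 12.10, 12.54 and 13.17, and Rnd3 by 2.04 ± 0.49 (0.00667). Arhgap25, a GTPase-activating protein of RAC, was 9.66, 9.84 and 10.07 at 0 h and 8.09, 7.72 and 7.97 at 2 h, and fell by 1.92 ± 0.19 on the log2 scale (1.09e-06). The list as a whole had 5 (21.7%) higher and 1 (4.35%) lower of 23, against 6.56% and 9.63% of all tested genes. The rise of Dock10 was lost without animal 2 (0.0661) or 3 (0.069). Edn1, the vasoconstrictor endothelin 1, rose by 3.77 ± 0.59 (0.000163), from 10.56 to 11.75 at 0 h to 14.77 to 15.06 at 2 h.

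Serpina3f, of a serine protease inhibitor cluster, had the largest difference after Cxcl9. It was 7.57, 7.34 and 7.32 at 0 h and 12.48, 12.87 and 13.56 at 2 h, and rose by 5.56 ± 0.78 (47.3-fold; adjusted p = 5.07e-05). The metallothioneins Mt2 and Mt1, which bind zinc, rose by 3.08 ± 0.31 (1.28e-06) and 1.06 ± 0.17 (0.000229). They stand in a list of 27 antioxidant genes in which 1 more, the cystine carrier Slc7a11, rose (1 of its 4 tested probes was not called) and Keap1 fell, both calls lost without animal 2 (0.0628 and 0.0741) or 3 (0.0743 and 0.0668), and that of Keap1 also without 6 (0.0633). In that list 3 genes (11.1%) rose and 1 (3.7%) fell, against 6.56% and 9.63% of all tested genes. Hmox1, a standard NRF2 target, was at 9.03 and 8.81 and not called (0.798).

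Of the 15 genes with the largest fall, 5 were detected on no array at 2 h. Cd300lb, an activating receptor of myeloid cells, was 8.92, 8.86 and 9.43 at 0 h and undetected on all arrays at 2 h, at least 4.873-fold lower (adjusted p = 2.67e-06). Sesn1, a sestrin that restrains mTORC1, was 11.73, 12.03 and 11.84 at 0 h and 8.37, 8.31 and 8.85 at 2 h. It fell by 3.35 ± 0.35 on the log2 scale (1.87e-06), and its other 2 tested probes were called lower too. Irf2bp2 and Irf2bp1, corepressors that bind IRF2, both fell: Irf2bp2 from 9.18, 9.64 and 9.52 to 6.8, 7.0 and 6.73 (by 2.60 ± 0.22; 3.2e-07), and Irf2bp1 to below detection, at least 2.931-fold lower (4.11e-07). Lpar6 and Gpr183, G protein-coupled receptors for lysophosphatidic acid and for oxysterols, also fell, Lpar6 by 2.62 ± 0.47 (0.00053) and Gpr183 at least 2.592-fold (0.00331). The rest of the 15 with the largest fall were Fam78a (at least 3.54-fold), Mbp, Plekhg3, AI467606, Swsap1 (at least 2.179-fold), Klhl21, Osgin1, Kmt5c and Egln3. Mbp and Plekhg3 were still detected on 2 of 3 arrays at 2 h and Klhl21, Kmt5c and Irf2bp2 on 1. Mbp, known as myelin basic protein, fell by 2.50, Plekhg3 by 2.46, Klhl21, an adaptor of the cullin-3 ubiquitin ligase, by 2.18, and Kmt5c, a histone H4 lysine methyltransferase, by 2.12.

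Egln3, a prolyl hydroxylase that marks HIF-1α for degradation, was 10.06, 10.00 and 10.52 at 0 h and 5.67, 7.08 and 8.62 at 2 h. It was detected on 2 of the 3 arrays at 2 h. Animals differed more at 2 h than for any other of these 15 genes, and it fell by 3.07 ± 0.48 on the log2 scale (adjusted p = 0.000146). Of the 30 genes of the glycolysis and hypoxia list 2 (6.67%) rose and 5 (16.7%) fell, with a median of −0.33. Over all tested genes the shares were 6.56% and 9.63%. Vegfa, the angiogenic growth factor, fell by 1.73 ± 0.34 (0.00126) and Pfkfb4, an enzyme that tunes the rate of glycolysis, by 1.51 ± 0.25 (0.000315), while Hif1a rose by 1.00 ± 0.19 (0.00111). Gapdh, Ldha and Pkm had differences of −0.56, −0.50 and −0.39 and were not called. The fall of Pfkl was lost without animal 2 (0.294), 3 (0.179) or 6 (0.0505), as was that of Aco1 (0.0919, 0.18 and 0.0964), which left 3 genes lower in each fit, and the rise of Adm was lost without 2 (0.192) or 3 (0.177).

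Of 151 tested genes named Zfp with a number, most of them encoding C2H2 zinc finger proteins that bind DNA, 11 (7.28%) rose and 38 (25.2%) fell, against 6.56% and 9.63% of all tested genes, with a median of −0.38 against −0.10. Zfp251 was 8.87, 9.06 and 8.94 at 0 h and 7.27, 7.02 and 6.87 at 2 h, and fell by 1.90 ± 0.20 on the log2 scale (adjusted p = 2.67e-06). Zfp710 was 11.82, 11.74 and 11.97 at 0 h and 10.41, 10.21 and 10.51 at 2 h, and fell by 1.47 ± 0.14 (7.84e-07). In both, every array at 2 h lay below every array at 0 h. Zfp800 and Zfp703 went the other way, by 1.46 ± 0.22 (0.000109) and 1.34 ± 0.22 (0.000299). The count of falls was 15 without animal 2, 19 without animal 3, 33 without animal 6 and 24 with the deposited normalization. That of rises was 5, 5, 10 and 6. Over all tested probes the calls lower went from 1384 to 621, 688, 1185 and 1028 in these fits. The calls higher went from 1146 to 590, 622, 1025 and 754.

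Chromatin factors divided, with 5 of 20 (25%) higher and 4 (20%) lower. Over all tested genes 6.56% were higher and 9.63% lower, and the lists in this paragraph are to be read beside these shares. Bcor, a corepressor, rose by 1.96 ± 0.34 (adjusted p = 0.00048), the H3K27 demethylase Kdm6b by 1.55 ± 0.35 (0.00363, but 0.0537 without animal 3 and 0.106 without 6), and the acetyltransferase Ep300 fell by 0.86 ± 0.14 (0.000333), while its other 2 tested probes were not called (0.19 and −0.66; adjusted p = 0.579 and 0.0879). Without animals 2, 3 and 6 the list held 2, 1 and 2 genes higher and 1, 2 and 1 lower. Over all tested probes these fits called 590, 622 and 1025 higher and 621, 688 and 1185 lower, against 1146 and 1384. Of 33 lineage factors and growth factor receptors 8 (24.2%) rose and 3 (9.09%) fell. Besides Irf8 they included Il4ra, the receptor chain shared by interleukin-4 and interleukin-13 (2.20 ± 0.32; 7.33e-05), and, among the falls, Il6ra by 1.59 ± 0.31 (0.00125), from 8.44 to 6.84, and the homeobox gene Hhex by 1.34 ± 0.22 (0.00026). The other 2 tested probes of Il6ra were not called (0.07 and −0.99; adjusted p = 0.897 and 0.0646). In the list of surface G protein-coupled receptors 4 of 23 (17.4%) rose and 3 (13%) fell. The largest rise was that of Ccrl2, a chemerin-binding receptor (1.87 ± 0.23, adjusted p = 1.16e-05). Of 28 cell death genes 6 (21.4%) rose and 2 (7.14%) fell. Among the rises were the peptidoglycan sensor Nod1 (1.76 ± 0.20, adjusted p = 6.63e-06) and the BH3-only gene Bcl2l11 (1.42 ± 0.24, adjusted p = 0.0003). Of the falls, Mcl1, by 0.76, was not called with the deposited normalization. Of 23 RNA decay genes 3 (13%) rose, Zc3h12a, Zfp36 and Dcp2, and 0 fell. Only Zc3h12a of these was called without animal 2 or 3. Without animal 2 the lineage list held 5 genes higher, the surface receptor list 2 and the death list 4, and without animal 3 the death list held 3.

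Several lists had a share called that was at or below that of all tested genes, 6.56% higher and 9.63% lower. Of 42 ribosomal protein genes 0 rose and 1 (2.38%) fell, of 20 cholesterol genes 0 were called, and of 33 cell cycle genes 2 rose, with Ccnd2 (cyclin D2) from 8.26 to 10.49 (2.24 ± 0.29; adjusted p = 2.64e-05), and 1, Ccnd3, fell, a call lost without animal 2 (0.154). Of 21 scavenger and alternative activation receptors 1 rose, the Fc receptor Fcgr4 (1.34 ± 0.27; 0.00157), and 1 fell, Marco (by 1.09; 0.0101, but 0.0866 without animal 2 and 0.0813 without 3). Mrc1, Cd36 and Msr1 had differences of 0.03, −0.04 and −0.07.

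The same contrast in the other genotype rests on 3 other animals and shares no array with it. The arrays of both genotypes were normalized together and fitted in the same model. A probe therefore has the same standard error in both contrasts, and the overlap of their calls is not independent of that shared spread. There 1114 probes (6.75%) were called higher and 1597 (9.68%) lower at 2 h. Of the 1146 wild-type probes called higher, 828 were also called higher in GCHfl/flTie2cre, which is 72.3% of the wild-type and 74.3% of the GCHfl/flTie2cre calls. Of the 1384 called lower, 1057 were also called lower, 76.4% and 66.2% of the lists. No probe was called in opposite directions. The median difference in GCHfl/flTie2cre was 1.07 for the probes that rose in wild-type and −0.96 for those that fell, against −0.07 over all probes. The test of the difference between the 2 responses called 0 probes (0%) with limma, with 225 at an unadjusted p under 0.05, and 32 where arrays were weighted by their quality.

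**Figure D4:**
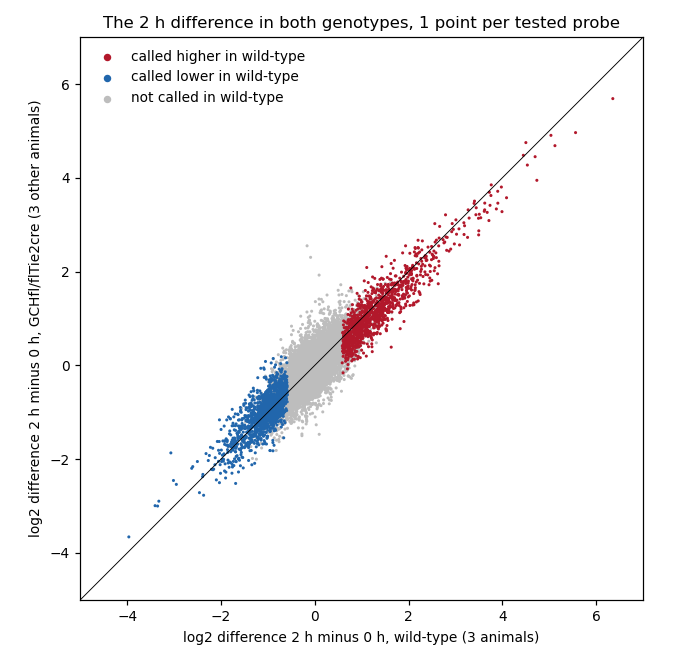
Each point is a tested probe, with its log2 difference, 2 h minus 0 h, in wild-type cells on the x axis and in GCHfl/flTie2cre cells (3 other animals) on the y axis. Probes called higher (red) or lower (blue) in wild-type lie in the upper right and lower left, with medians of 1.07 and −0.96 on the y axis.

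Of the 172 genes named by rule, the 95% interval of the difference between the responses excluded 0 for 3, each with an adjusted p of 1. Hif1a differed by 1.00 in wild-type and 0.32 in GCHfl/flTie2cre (−1.25 to −0.11), Marco by −1.09 and −0.05 (0.21 to 1.86) and Zfp710 by −1.47 and −0.94 (0.11 to 0.94). The other intervals included 0. For Cxcl9 the GCHfl/flTie2cre response was 5.69, lower than in wild-type by 0.67, with a 95% interval of the difference from −1.90 to 0.56. For Nos2 it was 3.28, and the interval ran from −2.05 to 0.62. For Il6 it was 3.58 (−1.50 to 0.47) and for Egln3 −1.87 (−0.20 to 2.60). For Tab1 the responses were −2.05 and −2.05, with an interval from −0.48 to 0.49.

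The later course of these genes was read from the wild-type arrays at 8 h and 24 h. The comparison of 8 h with 2 h shares the 2 h arrays with the comparison above, so each gene's values are given without a count of reversals. By brightest probe it called 1748 genes (19.7%) higher and 1515 (17.1%) lower. Among genes that rose and then fell, chosen for the size of the later fall, Ifnb1 had mean levels of 6.95, 11.46, 7.45 and 6.82 at 0, 2, 8 and 24 h. Rnd1 had 4.97, 8.84, 5.13 and 5.05. The means of both were back near their 0 h level by 8 h. The 8 h arrays of Ifnb1 spread widely, with an SD of 1.601 against 0.475 at 0 h. Csf1, the growth factor of the macrophage itself, had 8.93, 10.37, 6.61 and 6.02, and Frmd6 had 8.78, 10.99, 6.82 and 6.89, so both ended below where they began. Tnfsf4 (OX40 ligand), Gpr132, Plaat3, Bcor, Rhob and Rnd3 also rose by 2 h and were called lower at 8 h than at 2 h. At 24 h Rhob stood at 9.92, against 10.11 at 0 h, and Rnd3 at 7.40, against 11.26. Plaat3 was not called at 2 h without animal 2 (0.266), 3 (0.153) or 6 (0.0781).

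Among genes that fell and then rose, Egln3 had mean levels of 10.20, 7.12, 11.89 and 11.37, and Per1, a component of the circadian clock, 7.52, 5.55, 9.44 and 8.51. Ppp1r3b, a glycogen-targeting subunit of protein phosphatase 1, had 7.14, 5.67, 10.44 and 7.98, and Irf2bp2 9.45, 6.84, 10.60 and 11.24. Each stood above its 0 h level at 8 h, and Per1 and Ppp1r3b were not detected on any array at 2 h. The others of this kind were Ankrd37, Kif21b, Arid3a, Hyal1, 1500011B03Rik and Lpar6. The fall of Ankrd37 was lost without animal 2 (0.251) or 3 (0.192), with 2 h levels of 6.17, 6.30 and 9.07, and that of Arid3a without animal 2 (0.0516).

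**Figure D5:**
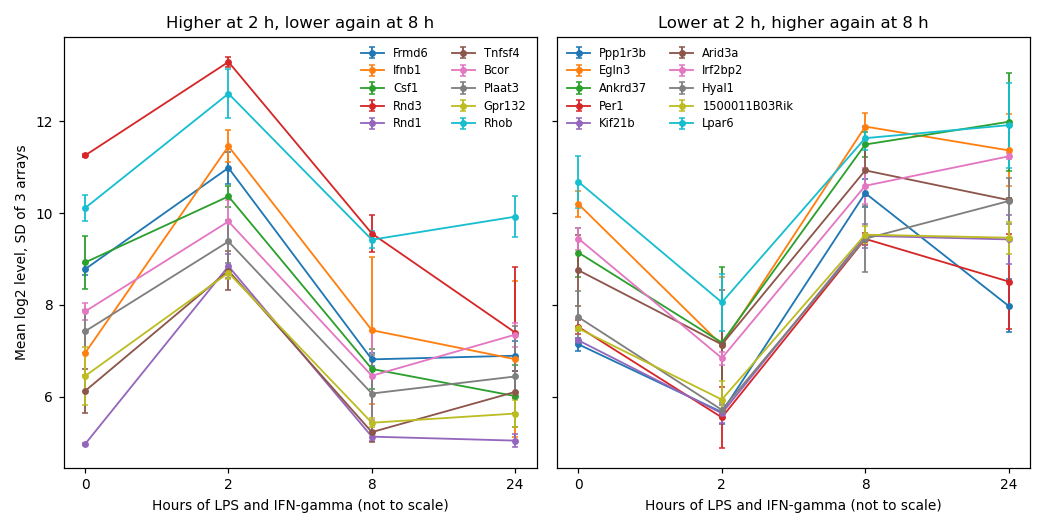
Mean log2 level with SD of 3 wild-type arrays at 0, 2, 8 and 24 h (evenly spaced, not to scale) for the 10 genes called higher at 2 h with the largest fall called from 2 h to 8 h, and the 10 called lower with the largest rise. Ifnb1 goes from 6.95 to 11.46 and back to 7.45, and Egln3 from 10.20 to 7.12 and up to 11.89.

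The same question was put to arrays whose means the wild-type contrast does not use, though the normalization and the pooled spread are shared. In GCHfl/flTie2cre, 8 h against 2 h called 20.1% of all tested probes higher and 18% lower. Of the wild-type probes that fell by 2 h, 884 of 1384 (63.9%) were called higher from 2 h to 8 h in GCHfl/flTie2cre, and 43 lower. Of those that rose, 423 of 1146 (36.9%) were called lower there and 144 (12.6%) higher. Not all early rises were brief: in wild-type Slamf1 rose further from 2 h to 8 h, by 2.70 (adjusted p = 0.000588), Nos2 by 1.61 (0.00763) and Slc7a2 by 2.67 (8.79e-06), while Il1a and Inhba had differences of −0.04 and −0.14 that did not pass the test. Cxcl9 stood at 15.43 at 2 h, close to the highest level on the arrays, and at 15.34 at 8 h. Sesn1 went on falling, by a further 1.27 (0.00642). Arg1, detected on no wild-type array at 0 h or 2 h, reached a mean level of 10.56 at 8 h and was called higher from 2 h to 8 h (2.26e-10).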

How the data were processed

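Macrophage RNA was extracted with mirVana, labelled with the MessageAmp kit and hybridized by the authors to Illumina MouseWG-6 V2 BeadChips, read on a BeadArray Reader and extracted with GenomeStudio V2010.1. The deposited files hold a raw intensity and a detection p-value for each probe, and values that the authors normalized with VSN, on a log2 scale (R 2.14 and limma, per the submitters' processing notes). No column belonged to no sample (0). The BeadChip of each array is not given in the sources used here, so chip was not tested as a batch.

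The neqc function of limma estimated background through the detection p-values, added an offset of 16, quantile-normalized the arrays and took log2. Probes with a detection p under 0.01 on at least 3 of 24 arrays were tested (16498 of 45281): 14050 name 1 gene, 8 several and 2440 none, by GEO's platform annotation, and the gene IDs of 14035 are in the RefSeq table. limma fitted 8 group means over all 24 arrays, with the animal as a random block (correlation 0.124), and adjusted p-values by Benjamini-Hochberg. Animal ids in the labels give the pairing. Deviations from the group means at 0 h and 2 h correlated at r = 0.523, 0.34 and 0.661 within animals 2, 3 and 6, and at a median of −0.42 between different animals. The deviations of the animals at each time cancel by construction. Positive values within animals therefore force negative values between them, and the −0.42 is not separate evidence of pairing. For a probe detected on no array of 1 group, the fold is a lower bound: the bright group's mean against, on each dim array, the higher of the probe's own signal and the lowest signal among detected probes. Precision is limited by the number of arrays. The fit was tested on simulated data. Software was limma 3.58.1 with statmod 1.5.0 under R 4.3.3.

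The comparison, the gene lists and the markers were chosen with earlier results of these data known. Named genes were the 15 with the largest difference each way whose groups did not overlap, up to 6 called members of each list each way, up to 10 each way with the largest opposite change called at 8 h, a set of 14 inflammatory genes, and list members not called. Promoter sequences are RefSeq's (GRCm38.p6). Alternatives were other normalizations, offsets, filters, blocks, weights, thresholds and sets of arrays, and leaving out each animal; the GCHfl/flTie2cre comparison of 8 h with 2 h, the list counts without animals 2 and 3 or with the deposited values, and the choice of printed promoters were added after seeing the data.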

Additional observations from a re-analysis of the deposited data

How the results depend on the processing

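Most of the 172 genes named by rule were chosen for being called on these same arrays. No direction of their wild-type results turned in any of the fits. The choice left little room for a turn, so this is no separate support for them. Of list members not called, Hmox1 went from −0.21 to 0.12 without animal 2, Mrc1 from 0.03 to −0.04 without animal 3 and H2-Ab1 from 0.01 to −0.18 without animal 6. Calls of the genes named by rule were lost most often with the test against a 1.5-fold change (80) and without animal 2 (48), 3 (44) or 6 (20). With no probe filter 26 were lost, and with a fold over 2 also 26. The main wild-type counts were 1146 higher and 1384 lower. Pairing was checked with the block: with no replicate block they were 981 and 1173, with animal as a fixed replicate block 1170 and 1458, and in the 6 wild-type arrays alone with that block 1680 and 2071. The deposited values gave 754 higher and 1028 lower, of which 708 and 872 were also called in the main analysis, with 701 higher in GCHfl/flTie2cre and 1790 lower from 2 h to 8 h in wild-type. No background correction gave 671 lower, 728 lower in GCHfl/flTie2cre and 2064 higher from 2 h to 8 h. Array weights gave 1993 and 2351, 1896 and 2484 in GCHfl/flTie2cre and 32 for the difference of responses, in a fit that warned of incomplete convergence. A fold over 2 gave 738 and 693, 683 and 797 in GCHfl/flTie2cre, and 1872 and 1805 from 2 h to 8 h. The test against 1.5-fold gave 288 and 184, 234 and 214, and 1178 and 927. Leaving out 1 animal gave 590 to 1025 higher and 621 to 1185 lower in wild-type, 501 to 876 and 739 to 1196 in GCHfl/flTie2cre, and, from 2 h to 8 h in wild-type, 2255 to 3073 higher and 1842 to 2671 lower. The last fits hold fewer arrays, and the causes of these changes were not tested. Of the probes called higher, 169 (14.7%) had no 0 h array above detection, and of those called lower 474 (34.2%) had no 2 h array above it, so their fitted differences depend on the background and are not measured folds.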

Other observations

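Some genes had probes that went apart. For Stab1, a scavenger receptor, 1 probe went from 11.44 to 7.47, the largest fall of any probe (−3.97 ± 0.37; adjusted p = 6.81e-07, limma), while its 2 other tested probes, of like level at 0 h, had differences of −0.22 and −0.17 and were not called. The same probe had a difference of −3.66 in GCHfl/flTie2cre. The gene was picked after its values were seen. For 4 genes (Exoc4, Fchsd1, Lonrf3 and Zfp52) 1 tested probe was called higher and another lower at 2 h. The probes of Zfp52 had differences of 1.19 and −1.34 in wild-type and 1.46 and −1.59 in GCHfl/flTie2cre, and those of Exoc4 1.08 and −1.32, and 1.23 and −1.17. Which transcripts these probes match was not tested.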
